A study of Homo sapiens with 4 samples.

Results

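The matrix metalloproteinases (MMPs) and their tissue inhibitors (TIMPs) were followed in osteosarcoma cells as 10 genes chosen by symbol: MMP1, MMP2, MMP3, MMP9, MMP10, MMP13, MMP14, TIMP1, TIMP2 and TIMP3, of 18417 genes in all. The genes were proposed with earlier results of these arrays in view, so every value below is a description and no test was run on it. U2-OS and HOS are established human osteosarcoma lines, and each was given OGE at 600 μg/mL or at 0 μg/mL for 24 h, with 1 array for each of the 4 combinations. The labels do not say what OGE stands for. The groups are named here U2-OS with OGE, U2-OS control, HOS with OGE and HOS control, and nothing but OGE and the line separates them in the labels.

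MMPs are zinc-dependent endopeptidases, most of them secreted as inactive proenzymes, that cut collagens and other proteins of the extracellular matrix. A conserved cysteine of the propeptide blocks the zinc until the propeptide is removed, and TIMPs bind the active site of the mature enzyme. In bone, collagenases and gelatinases take part in the remodelling of a matrix rich in type I collagen.

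Values are log2 signals from RMA, as deposited, in steps of 0.01. Calls were made by size alone: the difference had to be at least 1 (a factor of 2) and the larger of the paired values had to reach the median of its own array, the floor. Array medians lay between 3.58 and 3.62. With 1 array in each group no spread between replicates exists, and a call says only that the difference between those arrays was large. The RNA came from whole cultures, so fewer cells that make a transcript and less transcript in each cell cannot be told apart.

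Markers of the mesenchymal and osteoblast lineage reached the floor for 9 of 10 genes in every array. Their summed linear level was 1012 in U2-OS with OGE, against 2195 in U2-OS control, and 1586 in HOS with OGE, against 2515 in HOS control. With OGE, 3 were called lower in U2-OS (COL1A1, SPARC and CDH11) and 1 in HOS (COL1A2), against 7.88% and 2.18% of all genes. The markers did not all fall: VIM measured 8.78 in both HOS arrays, and ALPL differed by 0.66 and TWIST1 by 0.39 in U2-OS. COL1A1, COL1A2 and SPARC are also among the matrix substrates of MMPs given below. Of 8 measured immune markers, CD68 alone reached the floor in each array, and the leukocyte marker PTPRC lay between 1.28 and 1.48. The list's sum was 86.8 in U2-OS with OGE, against 55.3 in U2-OS control, and 99.4 in HOS with OGE, against 70.6 in HOS control. Among the immune markers, CD68 alone was called with OGE, where 2.94% of all genes were called higher in U2-OS and 1.7% in HOS. It measured 5.55 against 4.20 in U2-OS, a difference of 1.35, and 5.86 against 4.81 in HOS, a difference of 1.05. Endothelial markers reached the floor for 0 of 6 genes, with sums between 30.7 and 37.4, and epithelial ones for 3 to 5 of 7, with sums between 879 and 1755. The part of these shifts in the results below was not tested.

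**Figure D1:**
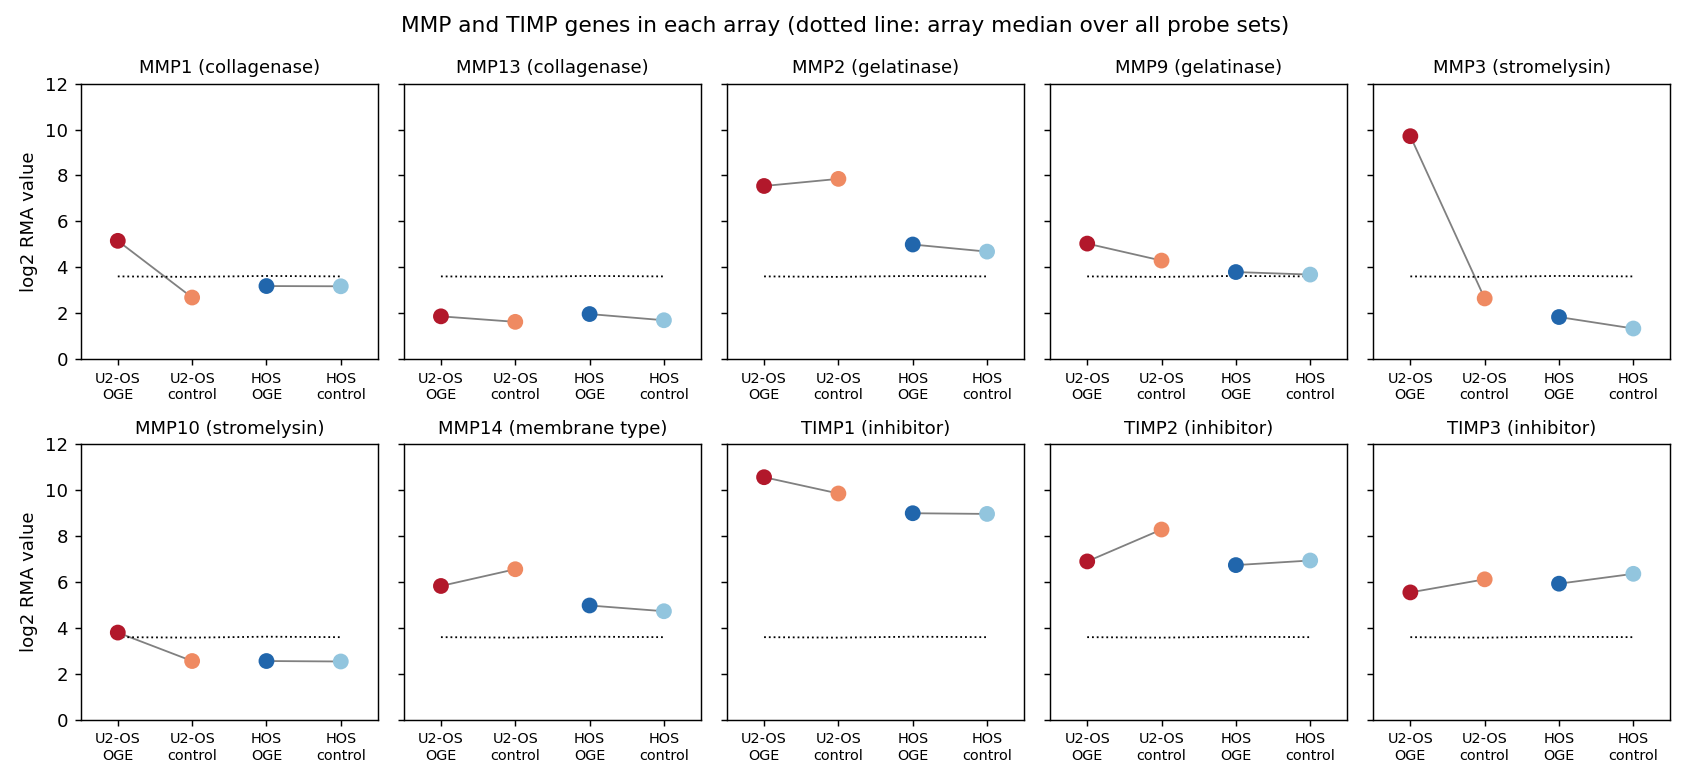
Log2 RMA value (vertical axis) of each of the 10 genes in the 4 arrays, with U2-OS in red and HOS in blue and the OGE array left of its control; grey lines join the arrays of a line. MMP3 stood at 9.71 in U2-OS with OGE and below the dotted array medians in the other arrays.

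The stromelysins degrade proteoglycans, fibronectin and laminin and can activate other proMMPs. MMP3, stromelysin 1, measured 9.71 in U2-OS with OGE, against 2.64 in U2-OS control. In HOS it measured 1.83 with OGE, against 1.33 in control. A single array of the 4, U2-OS with OGE, was above the floor.

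The MMP3 difference of 7.07 in U2-OS was rank 1 of the 11506 genes at the floor in that comparison. It equals 134-fold, but the control value lies below the array median, where RMA signals are uncertain. With the control set to the array median the difference was 6.13, or 70.0-fold. In HOS both values were below the floor and no call was possible.

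MMP10, stromelysin 2, measured 3.80 in U2-OS with OGE, against 2.56 in U2-OS control, a difference of 1.24. It measured 2.56 in HOS with OGE, against 2.54 in HOS control. The U2-OS call rests on a value just above the array median of 3.60, and with the control set to the median the difference was 0.22 and no longer a call.

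The collagenases cleave the triple helix of fibrillar collagens. MMP1, interstitial collagenase, measured 5.15 in U2-OS with OGE, against 2.68 in U2-OS control, a difference of 2.47 and rank 36 of 11506. It measured 3.18 in HOS with OGE, against 3.17 in HOS control, both below the floor. With the U2-OS control set to the array median the difference was 1.57, still a call. MMP13, collagenase 3, a product of hypertrophic chondrocytes and osteoblasts, was below the floor in all 4 arrays, at 1.86 in U2-OS with OGE, against 1.62 in U2-OS control, and 1.96 in HOS with OGE, against 1.69 in HOS control.

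The gelatinases digest denatured collagen and the type IV collagen of basement membranes. MMP2, gelatinase A, measured 7.54 in U2-OS with OGE, against 7.85 in U2-OS control, and 4.99 in HOS with OGE, against 4.68 in HOS control. Its OGE difference was -0.31 in U2-OS and 0.31 in HOS, both small beside the gap between the lines. MMP9, gelatinase B, measured 5.03 in U2-OS with OGE, against 4.29 in U2-OS control, and 3.79 in HOS with OGE, against 3.68 in HOS control. Its difference of 0.74 in U2-OS and of 0.11 in HOS did not reach a call.

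MMP14, a membrane-type MMP that activates proMMP2 at the cell surface, measured 5.83 in U2-OS with OGE, against 6.56 in U2-OS control. In HOS it measured 4.98 with OGE, against 4.73 in control. The difference was -0.73 in U2-OS and 0.25 in HOS, below the call in both lines.

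TIMP2 inhibits MMPs and also bridges MMP14 and proMMP2 in the activation complex. It measured 6.90 in U2-OS with OGE, against 8.29 in U2-OS control, and 6.74 in HOS with OGE, against 6.94 in HOS control. The U2-OS difference of -1.39 was the single lower call among the 10 genes, at rank 325 from the bottom of 11506, while the HOS difference was -0.20. For the genes of the activation complex, MMP2, MMP14 and TIMP2, the U2-OS differences were -0.31, -0.73 and -1.39, and TIMP2 alone was called. The median over all genes at the floor was -0.01 there. MMP2 ranked 3494 and MMP14 1574 from the bottom of the 11506, so the shared sign says little about the complex.

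TIMP1, a secreted inhibitor that binds proMMP9, measured 10.57 in U2-OS with OGE, against 9.86 in U2-OS control, and 9.00 in HOS with OGE, against 8.97 in HOS control. TIMP3, which is held in the matrix and also inhibits ADAM17, measured 5.55 in U2-OS with OGE, against 6.12 in U2-OS control, and 5.93 in HOS with OGE, against 6.36 in HOS control. Neither was called, and TIMP1 and TIMP3 differed in sign in U2-OS, with 0.71 and -0.57.

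In U2-OS, 3 of the 10 genes were called higher with OGE and 1 lower, with 9 at the floor. Over all genes at the floor there, 2.94% were called higher and 7.88% lower, 10.8% in all. In HOS, 0 of the 10 were called, with 6 at the floor, where 1.7% of all genes were called higher and 2.18% lower, 3.88% in all. In both lines in the same direction 0 of the 10 were called, against 0.768% of all genes higher and 1.09% lower. The median difference over the 10 genes was 0.48 in U2-OS, against 0.03 over all genes, and 0.07 in HOS, against 0.02 over all genes. Between the called and the uncalled genes in U2-OS, MMP10 with 1.24 lay just inside the threshold and MMP9 with 0.74 just outside; in HOS the largest difference at the floor was -0.43, of TIMP3.

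**Figure D2:**
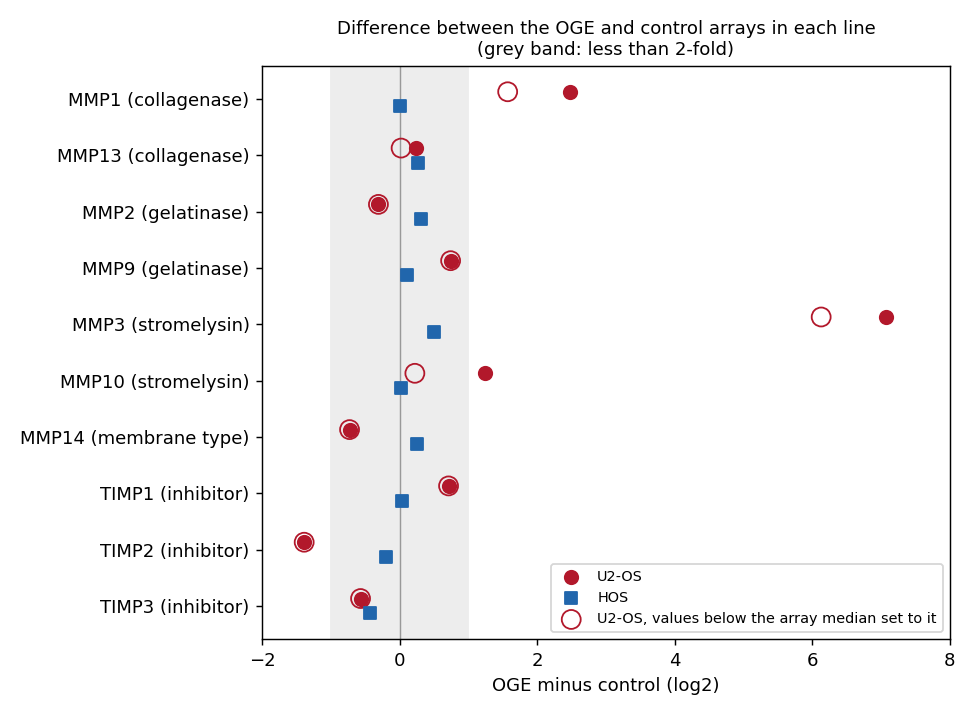
OGE minus control (log2, horizontal axis) for each gene, with U2-OS as red circles and HOS as blue squares; open circles give the U2-OS difference after values below the array median were set to it. MMP3 at 7.07, MMP1 at 2.47, MMP10 at 1.24 and TIMP2 at -1.39 lie outside the grey band in U2-OS, MMP10 moves inside it at 0.22, and every HOS square lies inside.

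The OGE response of U2-OS minus that of HOS was taken gene by gene. For MMP3 it was 6.57, rank 1 of 12029 genes that reached the floor in any array, for MMP1 it was 2.46, rank 18, and for MMP10 it was 1.22, rank 155. TIMP2 had -1.19, rank 345 from the bottom. For MMP3, MMP1 and MMP10, 3 of the 4 values lie below the floor, and with those set to it the difference was 6.11 for MMP3, 1.55 for MMP1 and 0.20 for MMP10, the last no longer past the threshold. The size threshold was passed by 3 of the 10 genes upwards and 1 downwards, against 2.38% and 4.81% of all genes in the same order, 7.18% in all. MMP14, with -0.98, lay just outside.

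MMP1, MMP3, MMP10 and MMP13 lie in a cluster of 9 MMP genes on chromosome 11, in the order MMP7, MMP20, MMP27, MMP8, MMP10, MMP1, MMP3, MMP12 and MMP13 by RefSeq annotation. The cluster genes called higher with OGE in U2-OS were MMP10, MMP1 and MMP3. With the control set to the array median the MMP10 difference was 0.22 and no longer a call. MMP10, MMP1 and MMP3 are next to each other among the MMP genes of the cluster. MMP12, the macrophage elastase on one side, measured 1.93 in U2-OS with OGE, against 1.43 in U2-OS control, and MMP8, the neutrophil collagenase on the other, 1.32 in U2-OS with OGE, against 1.29 in U2-OS control. The other 6 genes of the cluster were below the floor in all 4 arrays, with U2-OS differences between -0.06 and 0.50. In HOS the 9 differences lay between -0.15 and 0.50, and no gene of the cluster reached the floor in either array. The other members lie elsewhere, MMP14 on chromosome 14, MMP2 on 16, TIMP2 on 17, MMP9 on 20, TIMP3 on 22 and TIMP1 on X.

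**Figure D3:**
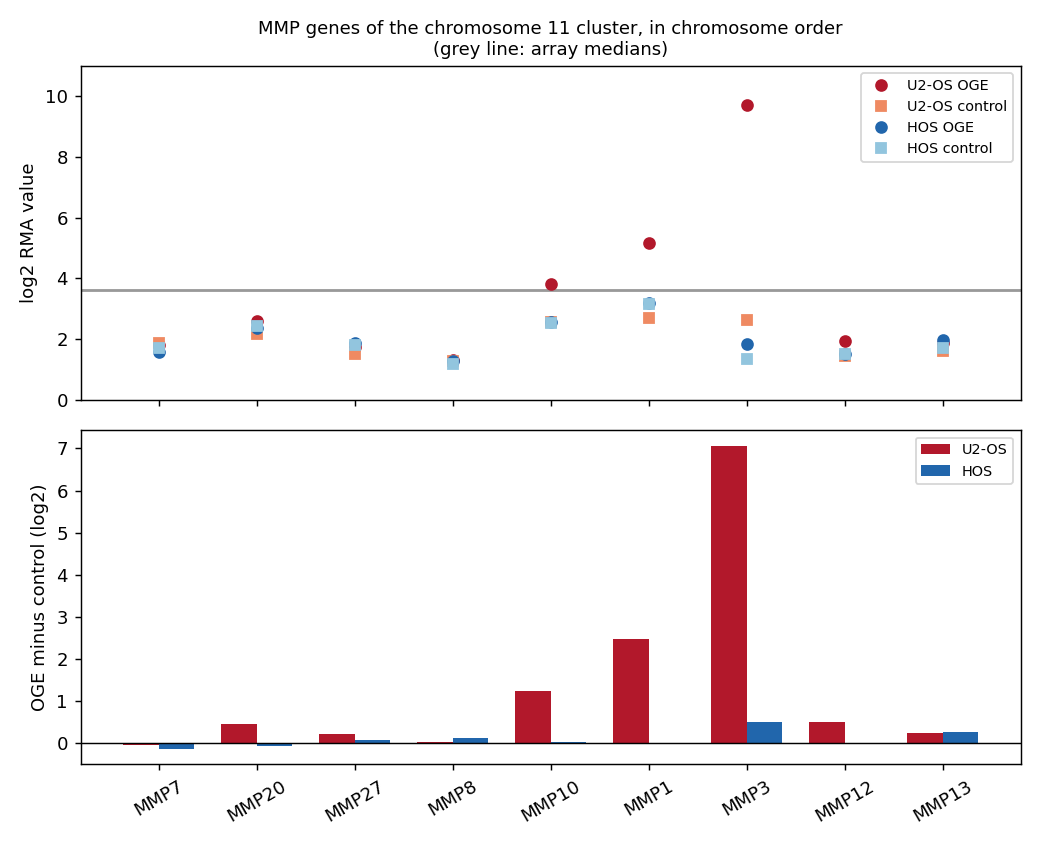
The 9 MMP genes of the chromosome 11 cluster in chromosome order (horizontal axis): log2 RMA value in each array (upper panel) and OGE minus control in log2 in each line (lower panel, bars from 0). The adjacent genes MMP10, MMP1 and MMP3 exceed the array medians in U2-OS with OGE, and the flanking genes stay between 1.32 and 2.59 there.

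The 250 bases before the annotated start are shown for MMP10, which was called in U2-OS, and for MMP8 and MMP7, which lie in the same cluster and were below the floor in every array. They come from RefSeq on GRCh38.p14, run 5′ to 3′ on the strand of the gene, and carry in capitals each match to the AP-1 motif (TGAGTCA or its reverse complement TGACTCA), the PEA3 motif of ETS factors (AGGAAG or CTTCCT) and the TATA box (TATAAA, forward strand). AP-1 and ETS factors are known regulators of several MMP promoters.
MMP10 (chr11:102780629-102780878, minus strand): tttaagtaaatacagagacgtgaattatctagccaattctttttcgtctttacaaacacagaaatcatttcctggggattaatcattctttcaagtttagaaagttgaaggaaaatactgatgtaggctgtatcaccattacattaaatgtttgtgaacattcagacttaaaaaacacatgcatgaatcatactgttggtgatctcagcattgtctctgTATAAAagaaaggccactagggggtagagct
MMP8 (chr11:102724955-102725204, minus strand): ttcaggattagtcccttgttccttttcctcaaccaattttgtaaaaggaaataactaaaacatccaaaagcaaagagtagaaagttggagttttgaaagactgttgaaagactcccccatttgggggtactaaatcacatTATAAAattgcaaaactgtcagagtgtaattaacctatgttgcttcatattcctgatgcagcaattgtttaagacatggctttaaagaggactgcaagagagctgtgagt
MMP7 (chr11:102530748-102530997, minus strand): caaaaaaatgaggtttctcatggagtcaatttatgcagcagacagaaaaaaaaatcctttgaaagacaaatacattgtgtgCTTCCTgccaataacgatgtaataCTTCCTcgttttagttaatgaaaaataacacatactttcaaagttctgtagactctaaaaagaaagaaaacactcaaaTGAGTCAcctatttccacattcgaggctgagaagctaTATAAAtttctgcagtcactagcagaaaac
MMP10 held a TATA box that begins 31 bases before the start and no exact match to the other motifs in this window. Only exact letters were searched, so sites that differ from a motif by a single base were not marked in any of these genes. MMP8 held a TATA box 110 bases before the start. Of the other cluster genes in the promoter table, not printed here, MMP20 held a TATA box at 72 bases and MMP27 none of the motifs. MMP7, matrilysin, held a TATA box at 30 bases, an AP-1 match at 67 and PEA3 matches at 145 and 169, and its values were between 1.56 and 1.88 in the 4 arrays. No 2 of these matches overlap. Of 35116 promoters of the same length, 4.2% held the AP-1 letters, 28.7% the PEA3 letters and 6.8% the TATA letters. Of the 10 genes, 4 were matched in the RefSeq promoter table, namely MMP10, MMP14, TIMP1 and TIMP3. Of these, TIMP1 held the PEA3 letters at 87 bases before its start, and none held the AP-1 letters.

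Between the lines, the gelatinase MMP2 was higher in U2-OS than in HOS whether or not OGE was given. With OGE the values were 7.54 in U2-OS and 4.99 in HOS, a difference of 2.55, or 5.86-fold, at rank 47 of 11492 genes. Without OGE they were 7.85 in U2-OS and 4.68 in HOS, a difference of 3.17, or 9.00-fold, at rank 38 of 11605. MMP2 was the single one of the 10 genes called in both states, where 3.0% of all genes were called higher and 3.17% lower, 6.17% in all.

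With OGE, 6 of the 10 genes were called higher in U2-OS and 0 lower, with 9 at the floor, against 4.89% of all genes higher and 6.24% lower. The differences were 7.88 for MMP3, rank 1 of 11492, 2.55 for MMP2, 1.97 for MMP1, 1.57 for TIMP1 and 1.24 for each of MMP9 and MMP10. The HOS values of MMP3, MMP1 and MMP10 lay below the floor, and with these set to the array median the difference was 6.09 for MMP3, 1.53 for MMP1 and 0.18 for MMP10, the last no longer a call. MMP14, with 0.85, and TIMP2, with 0.16, were not called. TIMP3 differed by -0.38 with OGE and by -0.24 without it.

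Without OGE, 3 of the 10 genes were called higher in U2-OS and 0 lower, with 6 at the floor, against 8.26% of all genes higher and 5.64% lower. Besides MMP2 these were MMP14, at 6.56 in U2-OS and 4.73 in HOS, a difference of 1.83, and TIMP2, at 8.29 in U2-OS and 6.94 in HOS, a difference of 1.35. MMP2, MMP14 and TIMP2, the genes of the proMMP2 activation complex, were the ones called higher in untreated U2-OS. TIMP1 lay just outside the call, with a difference of 0.89.

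The median difference between the lines over the 10 genes was 1.24 with OGE, where it was -0.01 over all genes, and 0.75 without OGE, where it was -0.03 over all genes. These comparisons use the same 4 arrays as the OGE comparisons, so the values are not independent of those given above.

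**Figure D4:**
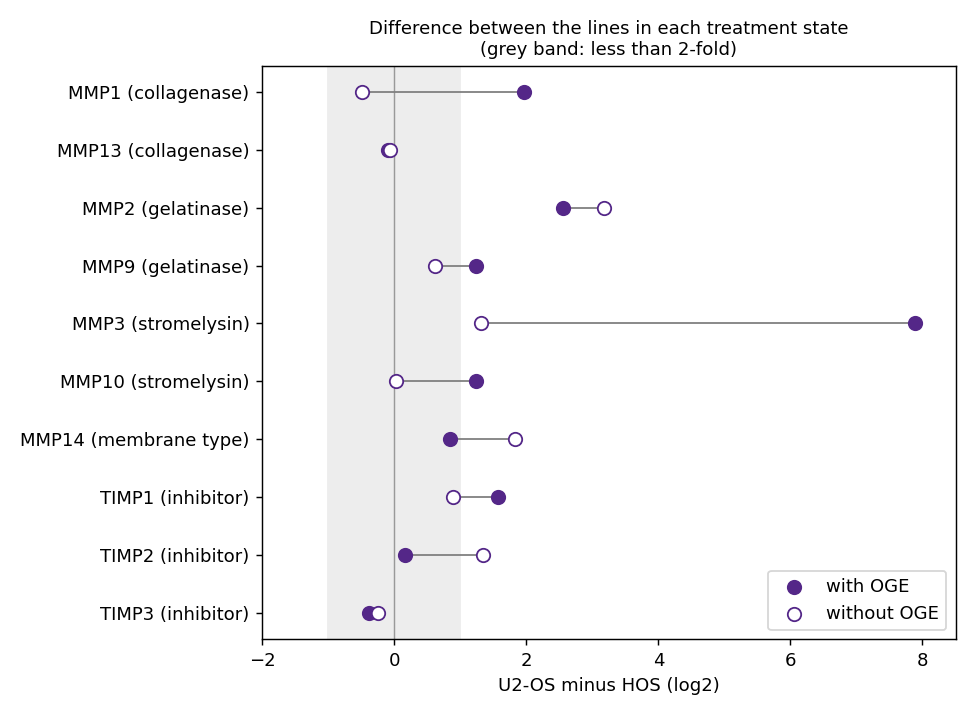
U2-OS minus HOS (log2, horizontal axis) for each gene, with filled circles for the OGE arrays and open circles for the control arrays. MMP2 lies beyond the grey band in both states, MMP14 and TIMP2 without OGE only, and MMP1, MMP9, MMP10 and TIMP1 with OGE only; MMP3 lies at 7.88 with OGE and at 1.31 without it, the second from values below the floor.

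Ordered by array, MMP1, MMP3, MMP9, MMP10 and TIMP1 had their highest value in U2-OS with OGE, and MMP2, MMP14 and TIMP2 theirs in U2-OS control. TIMP3 was highest in HOS control, at 6.36, and MMP13 was below the floor throughout. The HOS arrays differed from each other by at most 0.50 for any of the 10 genes, and without replicates it cannot be said whether such steps exceed the spread between cultures.

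The genes whose pattern over the 4 arrays was most like that of MMP3, MMP1 and MMP2 were found by the root mean square distance between log2 values, after each gene's own mean was subtracted, among 12020 genes other than the 10 members that reached the floor in any array. Closest to MMP3 were the stress cytokine GDF15 at a distance of 1.15, DEPP1 at 1.56, the mTORC1 inhibitor DDIT4 at 1.70, the transcription factor MYC at 1.71 and the heme oxygenase HMOX1 at 1.78. Even the closest, GDF15, differed from MMP3 in HOS, where it measured 4.57 with OGE, against 2.61 in control. In HOS the OGE difference was also 2.01 for DDIT4, 1.14 for HMOX1 and 1.00 for MYC, while it was 0.31 for DEPP1. Closest to MMP1 were the cytokine IL24 at 0.14, the NKG2D ligand ULBP2 at 0.16, and SLAMF7, KRTAP21-2 and RNU5B-1 at 0.18 to 0.19. IL24 measured 4.80 in U2-OS with OGE, against 2.59 in U2-OS control. Closest to MMP2 were the microfibril protein MFAP2 at 0.10, BEX4 at 0.11, IL2RB at 0.13, BEX1 at 0.15 and GSTT1 at 0.17. With 4 arrays many genes can share a pattern, and the distances are a description.

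Of the rest of the MMP family, 15 of 16 listed genes had a probe set with a single symbol. For OGE, 9 of the 15 were at the floor in U2-OS and 8 in HOS. In U2-OS 1 was called higher, MMP21, at 4.49 in U2-OS with OGE, against 3.47 in U2-OS control. In HOS 0 were called. Of all genes, 2.94% were called higher in U2-OS, 10.8% in all, and 1.7% higher in HOS, 3.88% in all. With the control set to the array median the MMP21 difference was 0.91 and no longer a call. The median difference over the 15 was 0.09 in U2-OS and 0.06 in HOS, and over those at the floor -0.15 in U2-OS and 0.07 in HOS. MMP16, a further membrane-type MMP, was called between the lines in both states, at 4.41 in U2-OS and 3.24 in HOS with OGE, and 5.23 in U2-OS and 3.32 in HOS without it. With the HOS value set to the array median its difference with OGE was 0.79, no longer a call. A second MMP16 probe set differed between the lines by 0.16 with OGE, from values below the floor, and by 1.42 without it.

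Among other inhibitors, RECK, a membrane-anchored inhibitor of MMPs, measured 4.03 in U2-OS with OGE, against 5.09 in U2-OS control. The difference of -1.06 was the list's single call with OGE. RECK was the 1 gene of the 4 at the floor there, where 7.88% of all genes were called lower. In HOS it measured 3.65 with OGE, against 4.53 in control, a difference of -0.88. TIMP4 differed by -0.17 in U2-OS and -0.15 in HOS with OGE, and between the lines it was called lower in U2-OS with OGE, with -1.01, or -0.30 with the U2-OS value set to the array median. The broad protease inhibitor A2M and the Kunitz inhibitor TFPI2 were below the floor in all 4 arrays.

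Of 8 genes for activators of proMMPs and for the MMP inducer BSG, 0 were called with OGE in either line. At the floor were 6 in U2-OS, where 10.8% of all genes were called, and 7 in HOS, where 3.88% were. In U2-OS, PLAT with -0.99 and PCSK5 with -0.97 lay just outside the threshold, while in HOS they differed by -0.82 and 0.15. Between the lines without OGE, 3 were called higher in U2-OS, with 7 at the floor, against 8.26% of all genes higher. These were PLAUR, the urokinase receptor, with 1.81, and the proprotein convertases PCSK5, with 1.62, and FURIN, with 1.08. With OGE, PLAUR alone was called, with 1.61 and 7 genes at the floor, against 4.89% of all genes higher.

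The ADAM and ADAMTS genes encode related metalloproteinases, some of which shed membrane proteins and some of which cut proteoglycans. Of the 17 measured, 5 were called lower in U2-OS with OGE and 2 in HOS, and 0 higher. At the floor were 13 in U2-OS and 12 in HOS. Over all genes at the floor 7.88% were called lower in U2-OS and 2.18% in HOS. ADAM9 measured 7.49 in U2-OS with OGE, against 8.93 in U2-OS control, and 7.77 in HOS with OGE, against 8.80 in HOS control. ADAMTS3 differed by -1.46 in U2-OS. ADAM17, the TNF-releasing sheddase, differed by 0.00 in U2-OS and 0.62 in HOS, and ADAMTS1 by -0.07 in U2-OS and -0.43 in HOS. The list's median OGE difference was -0.27 in U2-OS and -0.32 in HOS. Between the lines without OGE, 3 were called higher in U2-OS, among them ADAM17 with 1.45, and ADAMTS1 was called lower with -1.58. At the floor were 14, against 8.26% of all genes called higher and 5.64% lower. With OGE, ADAMTS1 alone was called, lower with -1.22 and 12 genes at the floor, against 6.24% of all genes lower.

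Of 12 transcription factors known to act on MMP promoters, 5 were called higher with OGE in U2-OS and 4 in HOS, and 0 lower, with all 12 at the floor in both lines. Over all genes at the floor 2.94% were called higher in U2-OS and 1.7% in HOS. ATF3 measured 6.85 in U2-OS with OGE, against 3.87 in U2-OS control, and 4.90 in HOS with OGE, against 4.22 in HOS control. JUN measured 8.45 in U2-OS with OGE, against 6.91 in U2-OS control, and 6.75 in HOS with OGE, against 6.69 in HOS control. FOS was called in both lines, with 2.50 in U2-OS and 1.82 in HOS, and so was FOSB, with 1.51 in U2-OS and 1.07 in HOS. ATF3 and JUN were called in U2-OS and not in HOS, and the U2-OS response minus the HOS response was 2.30 for ATF3 and 1.48 for JUN. Of 6 cytokines that induce MMP genes, 2 were at the floor for OGE in U2-OS and 1 in HOS, and 0 were called. The share of all genes called was 10.8% in U2-OS and 3.88% in HOS. LIF was called higher in U2-OS than in HOS, by 1.96 with OGE and 2.36 without it. In both states 2 of the 6 were at the floor, against 4.89% of all genes called higher with OGE and 8.26% without it.

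Of 14 matrix substrates of MMPs, 7 were called lower with OGE in U2-OS and 3 in HOS, and 0 higher, with 13 at the floor in U2-OS and 12 in HOS. Over all genes at the floor 7.88% were called lower in U2-OS and 2.18% in HOS. The list had medians of -1.05 in U2-OS and -0.64 in HOS, against 0.03 in U2-OS and 0.02 in HOS over all genes. COL3A1, a chain of fibrillar collagen, differed by -1.99 in U2-OS and -1.13 in HOS, and COL5A2 by -1.80 in U2-OS and -0.84 in HOS. The laminin chain LAMA4 differed by -1.32 in U2-OS, or by -0.86 and with no call when the OGE value was set to the array median. COL1A2, a chain of type I collagen, differed by -0.08 in U2-OS and -1.25 in HOS, and U2-OS minus HOS was -3.15 with OGE and -4.32 without it. These lists were put together with earlier results known, and their counts describe these arrays only.

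**Figure D5:**
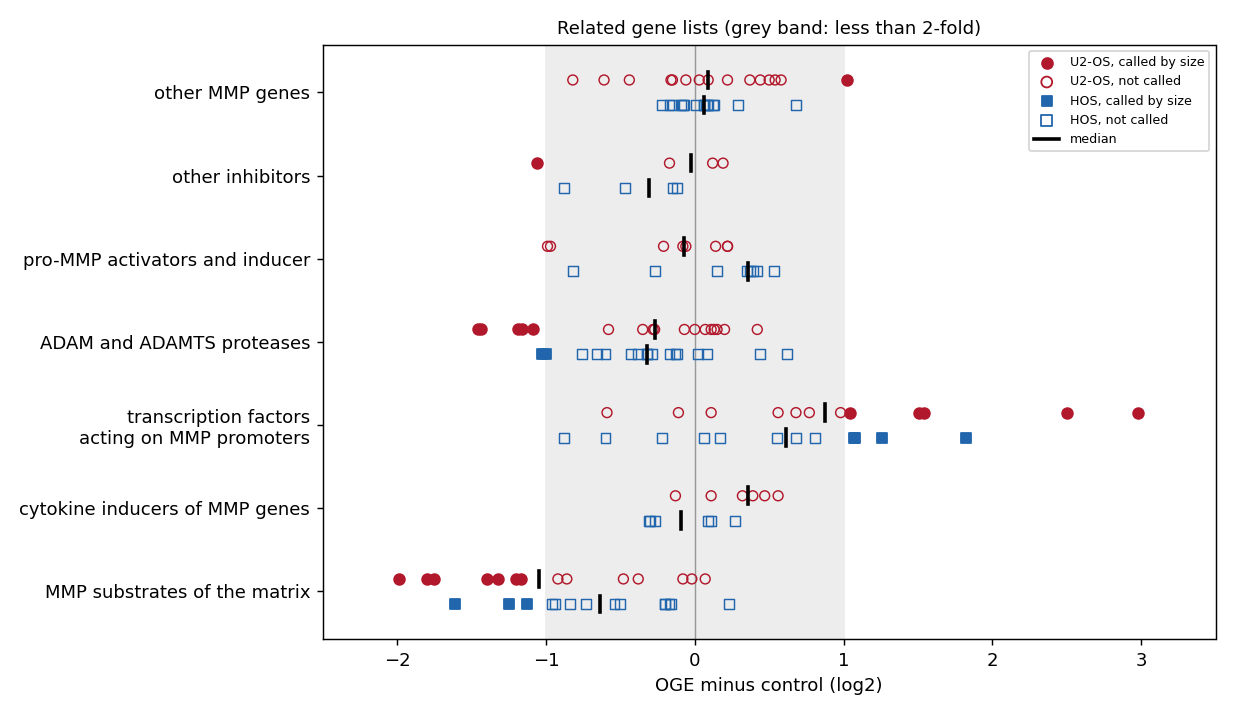
OGE minus control (log2, horizontal axis) for each measured gene of 7 related lists, with red circles for U2-OS and blue squares for HOS, filled where called by size; black bars are list medians. The medians of the matrix substrates lie at -1.05 in U2-OS and -0.64 in HOS, and those of the transcription factors at 0.88 in U2-OS and 0.62 in HOS.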

How the data were processed

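Gene expression was measured on 4 arrays, each from total RNA of 1 culture condition. The deposited values are log2 signals; per the submitters' processing notes they come from RMA, whose version is not stated, and the log base was inferred from the range of the values (0.16 to 13.41). RMA corrects background, equalises the distributions of the arrays and summarises probes, so differences at low signal are compressed and a shift shared by all genes would be hidden. No source used here names a genome build for the probes. Of 33297 probe sets, 19460 have a single symbol in the platform annotation of 2016, giving 18417 genes. For 769 genes with several probe sets the one with the highest mean was used. Calls by size were run on all genes in Python 3.11.15. The code of the call was checked on a simulated array, made by adding shifts larger than the threshold at high signal. That check does not cover values near the floor or the spread between cultures. No test was run, since each group has 1 array and nothing says that cultures were repeated. Members, gene lists and thresholds were chosen with earlier results of these data known. All 10 members are named, and from each related list up to 4 genes called in any comparison, by the largest difference, and every listed inhibitor. Alternatives were other thresholds and floors, quantile normalization and cyclic loess (limma 3.58.1), the mean of probe sets, and low values set to the floor. Precision is limited by the 4 arrays.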

Additional observations from a re-analysis of the deposited data

Results flagged for a closer look

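Among the 10 members and the genes of the related lists named for a call, 4 that were at the floor in both lines had OGE differences of opposite sign in U2-OS and HOS, with 1 array behind each value, and the difference between the lines was not tested. MMP14 differed by -0.73 in U2-OS and 0.25 in HOS, a response difference (U2-OS minus HOS) of -0.98. MMP2 differed by -0.31 in U2-OS and 0.31 in HOS, a response difference of -0.62. The other 2 genes encode proprotein convertases. PCSK5 differed by -0.97 in U2-OS and 0.15 in HOS, a response difference of -1.12, and FURIN by -0.21 in U2-OS and 0.53 in HOS, a response difference of -0.74. None of these OGE differences was called by size within a line. With low values set to the floor, the PCSK5 difference in HOS was 0.04. Listed genes not named for a call also had opposite signs. Examples are FOSL2, with -0.11 in U2-OS and 0.55 in HOS, and ETS1, with 0.11 in U2-OS and -0.88 in HOS. No share of opposite signs over all genes was taken, so the count is a description only.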

How the results depend on the processing

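No paired analysis was possible because the labels carry no replicate numbers that could pair arrays within a line. A fit with the line as a block was not run, since the members were chosen on these contrasts. Under quantile normalization and with the mean of probe sets, all 40 differences of the 10 genes kept their call, and under cyclic loess 39 did. Cyclic loess brought the TIMP1 difference between the lines without OGE to 1.00, so that 2 genes were called in both states. No called difference changed sign in any alternative. With a 1.5-fold threshold, 7 genes were called for OGE in U2-OS, 5 between the lines without OGE, 4 in both states and 8 for the difference of the responses, and the related lists gave 22 calls for OGE in HOS, 29 in U2-OS and 23 between the lines without OGE. With 3-fold these were 2 for OGE in U2-OS, 3 between the lines with OGE and 2 for the difference of the responses, and the related lists gave 2 calls for OGE in HOS, 5 for OGE in U2-OS, 6 between the lines with OGE and 7 without it. With no floor, 2 genes were called in both states, MMP3 being the addition. With a floor at the 75th percentile, 2 genes were called for OGE in U2-OS, MMP3 and TIMP2, 3 between the lines with OGE and 2 for the difference of the responses, and the related lists gave 8 calls without OGE. These shifts follow from the threshold or floor itself. Setting low values to the floor and taking the difference of the responses were chosen after the data were seen. The first ended the MMP10 calls, at 0.22 for OGE in U2-OS, 0.18 between the lines with OGE and 0.20 for the difference of the responses. It kept the call of the other 38 of the 40 differences, and in the related lists it left 17 calls of 19 for OGE in U2-OS, 11 of 13 between the lines with OGE and 12 of 13 without it. MMP1, MMP3 and MMP10 each had 1 array at the floor, so the size of their differences is bounded by signal over background.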

Other observations

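Further probe sets of the family were not the ones used for the values above, apart from the mean of probe sets tried as an alternative. The second TIMP3 probe set lay below the floor in all arrays, at 1.83 in U2-OS with OGE, against 1.89 in U2-OS control, and 1.89 in HOS with OGE, against 2.21 in HOS control. The second MMP16 probe set measured 2.34 in U2-OS with OGE, against 3.62 in U2-OS control, a difference of -1.28, while the one used differed by -0.82. The value of 3.62 is just above its array median of 3.58, so -1.28 passes the size rule. Between the lines the second probe set differed by 0.16 with OGE, both values below the floor, and by 1.42 without it. The one used differed by 1.17 with OGE and 1.91 without it. A probe set shared by MMP23A and MMP23B, a pseudogene and a gene that it cannot tell apart, measured 5.79 in U2-OS with OGE, against 5.37 in U2-OS control, and 5.66 in HOS with OGE, against 5.49 in HOS control.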
